A study of Saccharomyces cerevisiae with 4 samples.

Results

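The large subunit of the yeast mitochondrial ribosome was examined in the long-lived SSG1-1 mutant and in wild-type Saccharomyces cerevisiae. Its genes were taken by name, as the array probe sets annotated MRPL followed by a number, or MRP7, MRP20, MRP49, IMG1, IMG2 or YML6. This gave 40 probe sets for 40 different genes, among 5498 probe sets named for 1 S. cerevisiae gene. The rule uses gene names and no measured value. Each of the 40 was called present in both strains on the arrays that had usable detection calls (1 array per strain), so all 40 passed the detection filter and were tested, among 5376 probe sets in all.

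The SSG1-1 mutant (strain SSG1, genotype SSG1-1) was measured on 2 Affymetrix arrays and the wild type (W303, given as W303-1A in the study's design) on another 2. The arrays of each strain are numbered 1 and 2. Both strains were kept at 25 °C in rich YPD medium and then moved to SDC medium of pH 6.0 for 12 h, which brought them to early-log phase (2000000 cells per ml). The study asked how gene expression differs in a mutant with an extended lifespan. The labels do not say which gene carries the SSG1-1 mutation, and no check of it was made here. Nor do they tell whether arrays 1 and 2 came from separate cultures or clones, so p-values here reflect only array-to-array spread, part or all of which may be technical.

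The mitochondrial ribosome makes the few proteins that the mitochondrial genome encodes, nearly all of them subunits of the respiratory complexes and of ATP synthase. Its large subunit holds the large mitochondrial rRNA, the site where peptide bonds form and the tunnel through which the new protein leaves toward the inner membrane. The rRNA is encoded in the mitochondrion, whereas the proteins of the large subunit are encoded in the nucleus, made in the cytosol and imported. In budding yeast, which can live by fermentation, loss of mitochondrial translation is tolerated but generally leads to loss of an intact mitochondrial genome. Of the 40 genes, 25 encode homologs of bacterial ribosomal proteins and 15 encode proteins that bacterial ribosomes lack. The homolog given for each member was among the names listed for it in the reference gene table (40 of 40).

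The deposited arrays had not been brought to 1 level. Their 2% trimmed mean signals were 1034 and 1168 in the mutant and 1298 and 1122 in the wild type, and signals were therefore quantile normalized. All signals below are after that step unless called deposited. The ratio of 3′ to 5′ control probe sets, a sign of RNA integrity, was 1.01 and 0.948 in the mutant and 0.986 and 0.941 in the wild type for YFL039C (actin). For YER148W it was 2.63 and 2.31 in the mutant and 2.61 and 2.35 in the wild type. For YER022W it was 9.65 and 9.96 in the mutant and 13.3 and 15.9 in the wild type, so that this ratio was lower on both mutant arrays. Its part in the results below was not tested.

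Most large subunit genes had a slightly higher signal in the mutant, and 0 of the 40 passed the test. The log2 difference, mutant minus wild type, was above 0 for 34 of the 40 genes and below 0 for 6. Its median was 0.18, against -0.017 over all 5376 tested probe sets, where 45.9% were above 0. A gene is called separated here where its 2 mutant arrays both exceed, or both fall short of, its 2 wild-type arrays. Of the 40 genes, 21 were separated upward (52.5%), against 14.0% of all tested probe sets, and 2 were separated downward (5%), against 18.0%. The differences were small. They ran from -0.12 for MRP20 to 0.42 for MRPL3, 13 genes differed by at least 1.2-fold and 0 by at least 1.5-fold. The share of all tested probe sets past these folds was not computed, so these counts only describe size.

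In limma's moderated test, same-numbered arrays were not taken as paired. A fit with the number as a replicate block gave other calls and is described at the end. Without the block, adjusted by Benjamini-Hochberg over all 5376 probe sets, 0 large subunit genes were higher and 0 lower at adjusted p under 0.05. Of all probe sets, 0.0186% were called higher and 0% lower. The lowest adjusted p of the 40 genes was 0.917 (limma). At an unadjusted p under 0.05, 5 genes were higher (12.5%), against 2.72% of all probe sets, and 0 were lower, against 1.80%. The 5 were MRPL3, MRPL4, MRPL6, MRPL23 and MRPL35. That count rests on all 4 arrays. Fewer members reached that limma threshold with any 1 array left out. The median log2 difference of the 40 genes was then 0.20 without mutant array 1 and 0.16 without mutant array 2. It was 0.20 without wild-type array 1 and 0.16 without wild-type array 2. With 1 array left in a strain more probe sets separate, and 8 members were separated downward without mutant array 2 (39.2% of all probe sets) and 5 without wild-type array 2 (32.9%). In the deposited values the median log2 difference over all tested probe sets was -0.15. The arrays did not differ in level by strain alone. The median deposited signal of S. cerevisiae probe sets was 874 and 1084 on the mutant arrays and 1171 and 1012 on the wild-type arrays. In these deposited values 4 of the 40 large subunit genes were separated upward, against 3.40% of all probe sets, and 0 downward, against 22.3%. The median of the 40 genes was 0.021, and 11 genes that were positive after normalization were negative.

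**Figure D1:**
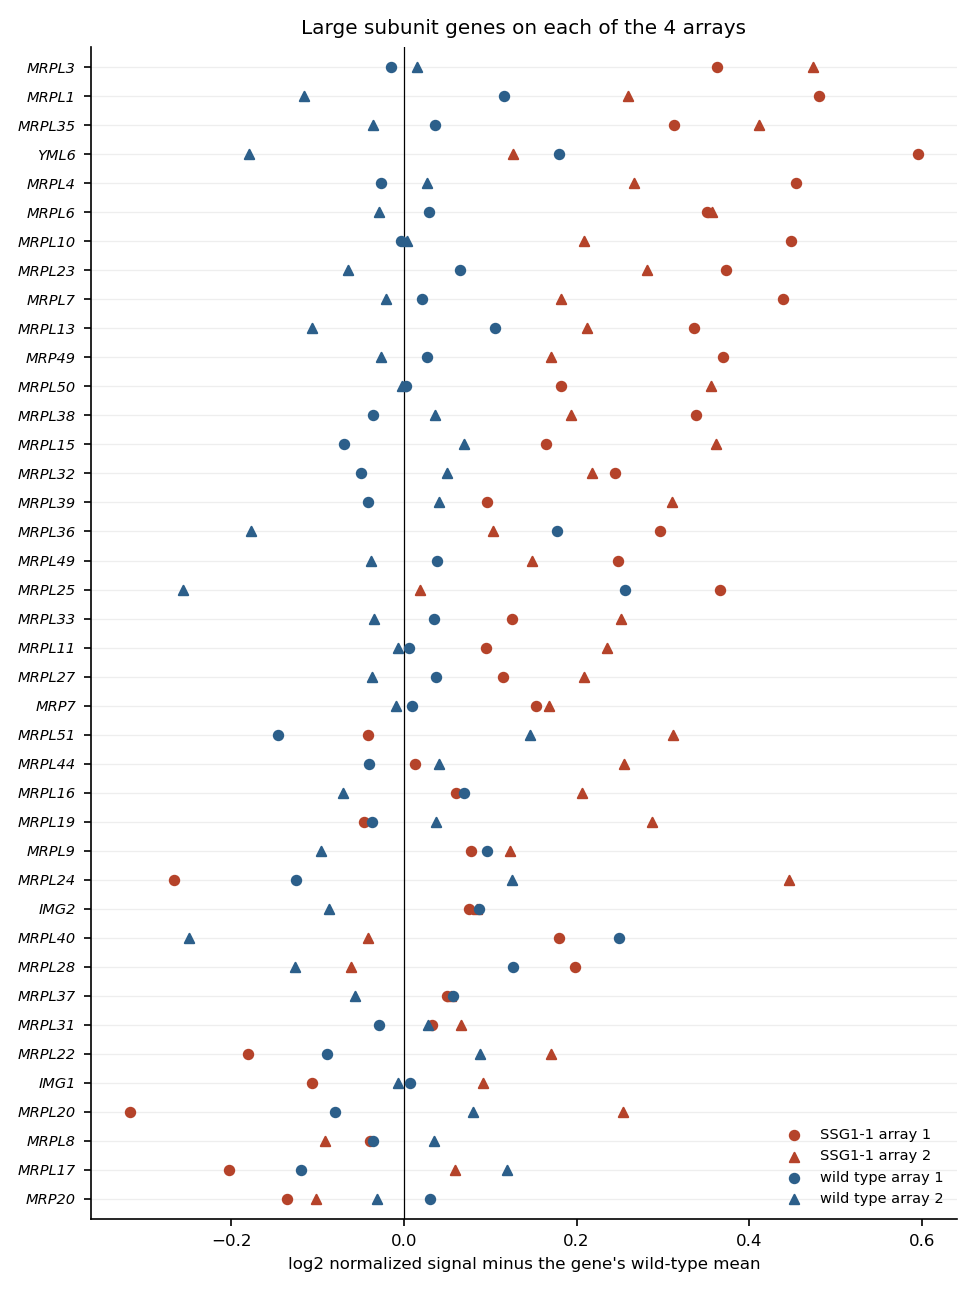
Normalized signal of the 40 large subunit genes on each array, as log2 signal minus that gene's wild-type mean (horizontal axis), with genes ordered by log2 difference. Red marks are the SSG1-1 arrays and blue marks the wild-type arrays, circles for arrays numbered 1 and triangles for arrays numbered 2. The red marks lie to the right of both blue marks for 21 genes and to the left for MRPL8 and MRP20.

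The 14 members assigned to the rRNA-binding core of the subunit, all with bacterial homologs, had a median log2 difference of 0.20. Of these, 9 were separated upward (64.3%, against 14.0% of all tested probe sets) and 1 downward (7.14%, against 18.0%). MRPL6, homolog of bacterial uL6, had signals of 3246 and 3260 on the mutant arrays, against 2597 and 2493 on the wild-type arrays. The groups did not overlap, and the mutant arrays were nearly equal (log2 difference 0.35 ± 0.11 SE, n = 2 each, adjusted p by limma = 0.944). MRPL23, homolog of uL13, had the highest signals of any member's probe set, 6128 and 5753 in the mutant and 4951 and 4524 in the wild type. Signals of different probe sets do not rank RNA levels, so this says only that the probe set was far from the dim end. Its log2 difference was 0.33 ± 0.10 (SE, n = 2 arrays each, limma adjusted p = 0.944), with no overlap between strains.

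MRPL10, homolog of uL15, was at 0.33 ± 0.14 (SE), and MRPL38, homolog of uL14, at 0.27 ± 0.12. MRPL50 (bL9) stood at 0.27 ± 0.14, and MRPL32 (bL32) at 0.23 ± 0.13. The MRPL32 precursor is known to be cut inside mitochondria by the m-AAA protease, a step needed before it joins the ribosome. MRPL39 (bL33) was at 0.20 ± 0.13, MRPL49 (bL21) at 0.20 ± 0.12 and MRPL33 (uL30) at 0.19 ± 0.12. Each of these 7 genes was separated upward.

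Strains overlapped for 4 core members. These were MRPL16 (uL16) at 0.13 ± 0.14, MRPL9 (uL3) at 0.10 ± 0.14, MRPL24 (bL28) at 0.090 ± 0.27 and IMG1 (bL19) at -0.0075 ± 0.14 (SE). The homologs of MRPL16 and MRPL9 lie close to the peptidyl transferase site in bacteria, and IMG1 was named for its need in keeping the mitochondrial genome. IMG1 had signals of 1537 and 1764 in the mutant and 1663 and 1648 in the wild type, with the mutant arrays on either side. MRPL24 varied most among members between arrays of 1 strain, at 599 and 982 in the mutant and 661 and 786 in the wild type. MRPL8 (bL17) was one of 2 members separated downward, at 548 and 529 against 549 and 577. Its log2 difference was -0.065 ± 0.14 (SE), and mutant array 1 and wild-type array 1 were almost equal.

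The L1 stalk guides the outgoing tRNA, and MRPL1 (uL1) is its protein. MRPL1 had signals of 2518 and 2159 in the mutant and 1955 and 1665 in the wild type. Array 1 was the higher one in each strain, but the strains did not overlap, and the log2 difference was 0.37 ± 0.15 (SE, n = 2 arrays each, limma adjusted p = 0.998). The other stalk recruits translation factors. MRPL11 (uL10), which anchors that stalk, had signals of 1220 and 1344 in the mutant and 1147 and 1137 in the wild type (0.16 ± 0.13 SE), with no overlap. MRPL19 (uL11), at the stalk base, had 2076 and 2617 in the mutant and 2090 and 2200 in the wild type (0.12 ± 0.16 SE). Here only mutant array 2 stood clear of the wild type.

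The central protuberance faces the small subunit and the bound tRNAs. Its members with bacterial homologs are MRPL7, MRPL36 and MRP7, and all 3 had positive log2 differences. MRPL7 (uL5) had signals of 3221 and 2696 in the mutant and 2410 and 2341 in the wild type, without overlap (0.31 ± 0.14 SE). MRPL36 (bL31) was at 0.20 ± 0.16 (SE), with overlap. MRP7 (bL27), whose bacterial homolog reaches toward the peptidyl transferase site, was at 0.16 ± 0.13 (SE), with no overlap.

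Each member was given only 1 place, and 5 were assigned to the tunnel and its exit. YML6 (uL4) lines the tunnel and had signals of 1363 and 986 in the mutant and 1022 and 797 in the wild type. Mutant array 2 fell below wild-type array 1, so the strains overlapped despite a log2 difference of 0.36 ± 0.23 (SE). MRPL4 (uL29), at the exit, had 1976 and 1735 in the mutant and 1416 and 1470 in the wild type, without overlap (0.36 ± 0.14 SE, limma adjusted p = 0.998). MRP20 (uL23) also lies at the exit, next to the membrane insertase Oxa1, and was the lowest of the 40. It had 187 and 192 in the mutant and 210.2 and 201 in the wild type, separated downward (log2 difference -0.12 ± 0.17 SE). Its probe set was also the dimmest among the members.

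MRPL22 (uL22), which forms part of the tunnel wall, had 879 and 1121 in the mutant and 936 and 1059 in the wild type, with the mutant arrays outside the wild-type range on either side (-0.0046 ± 0.18 SE). MRPL40 (uL24) had 498 and 427 in the mutant and 522 and 369.8 in the wild type, with overlap (0.069 ± 0.22 SE). The 5 tunnel and exit members thus had a median of 0.069, with 1 gene separated upward and 1 downward (20% each, against 14.0% and 18.0% of all tested probe sets). With 5 genes and standard errors near the size of the differences, no contrast between places in the subunit was tested.

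**Figure D2:**
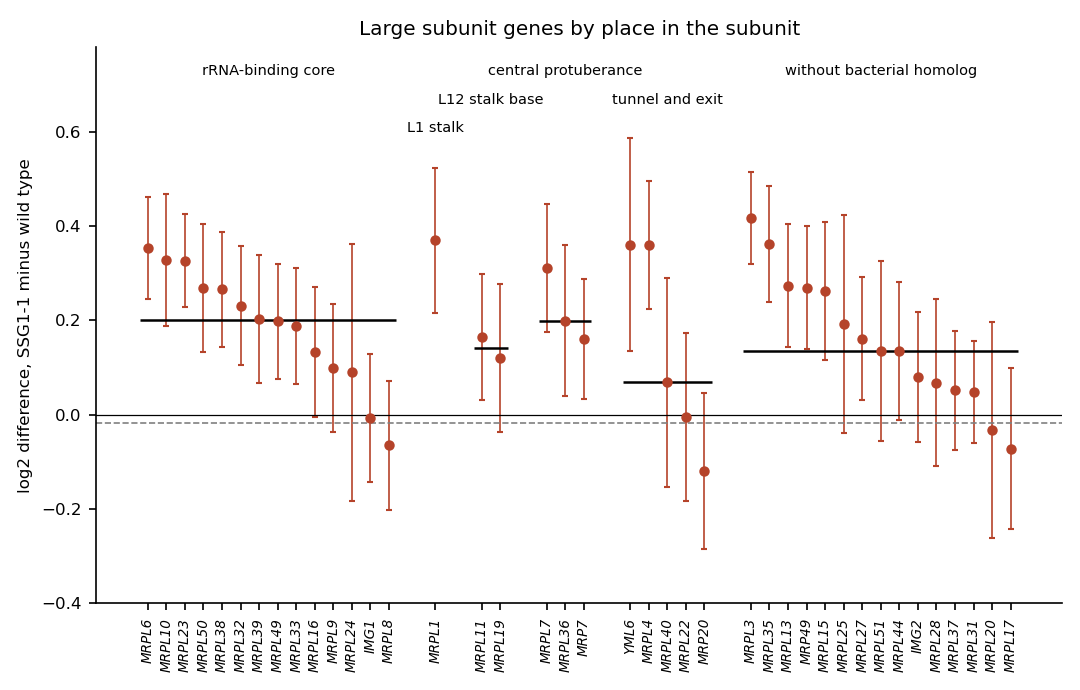
Log2 difference, mutant minus wild type (vertical axis), of the 40 genes grouped by place in the subunit. Points are the 40 genes, bars are limma's moderated standard errors (n = 2 arrays per strain), black lines are group medians (0.20 for the rRNA-binding core, 0.14 for the stalk base, 0.20 for the central protuberance, 0.069 for the tunnel and exit and 0.14 for genes without a bacterial homolog), and the dashed line is the median of all tested probe sets (-0.017). The tunnel and exit genes run from -0.12 to 0.36, while the 3 genes of the central protuberance run from 0.16 to 0.31.

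The 15 members with no bacterial homolog had a median log2 difference of 0.14, against 0.20 for the 25 with one. Upward separation was seen in 7 of 15 (46.7%) and in 14 of 25 (56%), against 14.0% of all tested probe sets. Downward separation was seen in 0 of 15 and 2 of 25 (8%), against 18.0%. MRPL3 (mL44), a protein with a fold of the RNase III family, had the largest difference of all 40. Its signals were 4993 and 5392 in the mutant and 3843 and 3926 in the wild type, a 1.34-fold difference with a gap between strains far wider than within either (log2 0.42 ± 0.10 SE, n = 2 arrays each, limma unadjusted p = 0.00785 and adjusted p = 0.917). MRPL35 (mL38), which in yeast has been tied to cytochrome oxidase assembly, had 2209 and 2366 in the mutant and 1824 and 1735 in the wild type. It did not overlap either (0.36 ± 0.12 SE, limma adjusted p = 0.998).

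MRPL13 (mL50) was at 0.27 ± 0.13 (SE), MRP49 (mL61) at 0.27 ± 0.13 and MRPL15 (mL57) at 0.26 ± 0.15, each without overlap between strains. MRPL27 (mL41) was at 0.16 ± 0.13, also without overlap. MRPL31 (mL60) likewise had no overlap, but only just, with 2855 and 2922 in the mutant and 2737 and 2848 in the wild type (0.049 ± 0.11 SE). MRPL25 (mL59) is also known as AFO1, a name given because its loss was reported to lengthen yeast replicative lifespan. Its signals were 1731 and 1362 in the mutant and 1605 and 1125 in the wild type, with array 1 the higher in both strains and overlap between them (0.19 ± 0.23 SE).

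Overlap was also seen for MRPL51 (mL43) at 0.14 ± 0.19 (SE), MRPL44 (mL53) at 0.13 ± 0.15, IMG2 (mL49) at 0.080 ± 0.14, MRPL28 (mL40) at 0.068 ± 0.18 and MRPL37 (mL54) at 0.052 ± 0.13. IMG2, like IMG1, was named for its need in keeping the mitochondrial genome. MRPL20 (mL58) had 561 and 834 in the mutant and 662 and 739 in the wild type, so mutant array 1 was the lowest and mutant array 2 the highest of the 4 arrays (-0.032 ± 0.23 SE). MRPL17 (mL46) had 766 and 919 in the mutant and 812 and 958 in the wild type, with array 2 the higher in each strain (-0.072 ± 0.17 SE).

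Arrays of the mutant differed from each other more than arrays of the wild type did over these genes. The median absolute log2 difference between the mutant arrays was 0.18, against 0.082 between the wild-type arrays. The strain difference was larger than the mean gap between arrays of 1 strain for 23 of the 40 genes. That count was not made over all tested probe sets, so it is not read as particular to these genes. Between the arrays numbered 1 the median log2 difference of the 40 genes was 0.11, with 27 of 40 genes above 0. Between the arrays numbered 2 it was 0.22, with 37 of 40 above 0. For all 5376 tested probe sets the 2 medians were -0.018 and -0.012, with 2473 and 2526 probe sets above 0. The 27 genes above 0 within number 1 were also above 0 within number 2, against 29.9% of all tested probe sets above 0 within both.

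**Figure D3:**
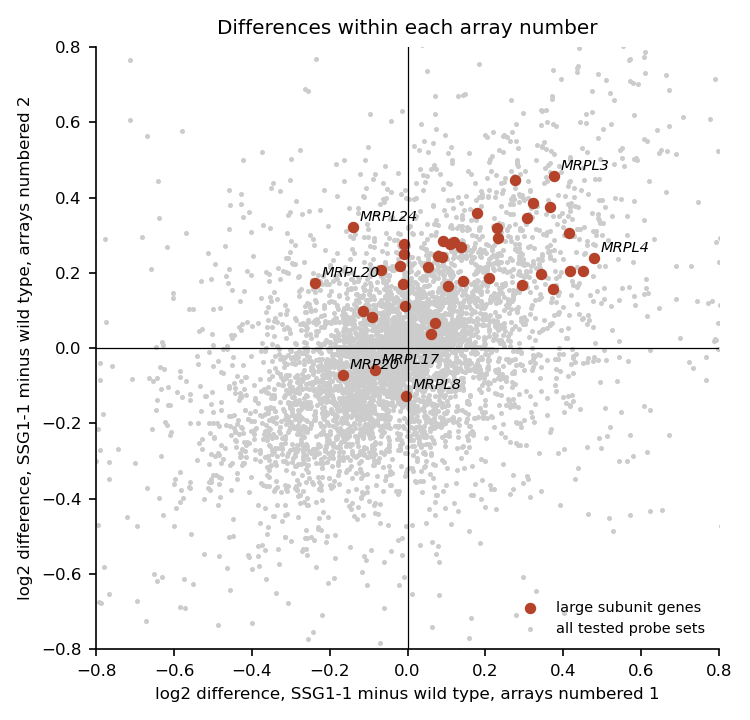
Log2 difference, mutant minus wild type, within arrays numbered 1 (horizontal axis) and within arrays numbered 2 (vertical axis). Red points are the 40 large subunit genes and grey points all 5376 tested probe sets, of which 190 lie outside the axes. Of the 40 genes, 27 lie above 0 on both axes, and 10, MRPL24 and MRPL20 among them, are above 0 only within number 2.

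The difference between strains went with the signal of the probe set. In 4 groups of 10 genes ordered by mean signal, the median log2 difference was 0.032 in the dimmest (mean signals of 197 to 1123), then 0.16, 0.20 and 0.27 in the brightest (2236 to 5301). All tested probe sets in the same 4 signal ranges had medians of -0.016, -0.0014, -0.011 and -0.026. From the dimmest group to the brightest, 1, 5, 7 and 8 of the 10 genes were separated upward. Among all tested probe sets in the same ranges, 13.8%, 14.2%, 13.7% and 15.3% were separated upward. None of the 8 members with a mean signal under 1000 was among the 21, and these 8 had log2 differences of -0.12 to 0.090. They were MRP20, MRPL8, MRPL17, MRPL20, MRPL22, MRPL24, MRPL28 and MRPL40. The value of 1000 and the 4 groups were chosen after the values were seen, so they are given without a test.

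Across the 40 genes, mean log2 signal and log2 difference correlated with Pearson's r of 0.67 and Spearman's rho of 0.60. In the deposited values r was 0.62, and within arrays numbered 1 and 2 it was 0.59 and 0.58. Genes are not independent replicates and all 40 share the same 4 arrays, so these are descriptions. Over all 5376 tested probe sets r was 0.029. Over 32 small subunit genes it was 0.31, and over 39 nuclear genes for the respiratory chain and ATP synthase it was -0.58. Gene length (coding length in the reference) and log2 difference had r of 0.24 over the 40 members.

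**Figure D4:**
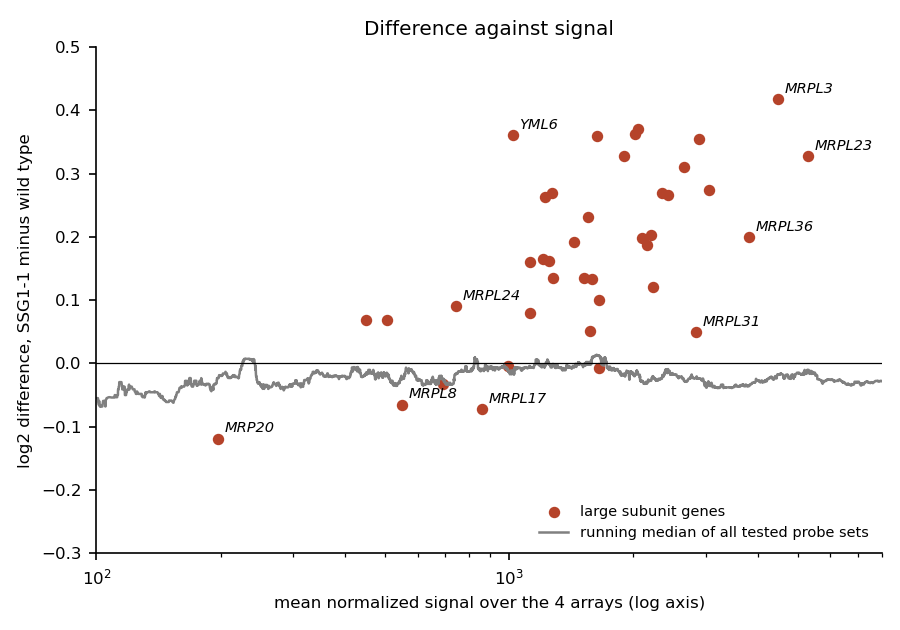
Log2 difference, mutant minus wild type (vertical axis), against mean normalized signal over the 4 arrays (horizontal log axis). Red points are the 40 large subunit genes and the grey line is a running median over all tested probe sets ordered by signal. The members below a signal of 1000 lie between -0.12 and 0.090, while those above reach 0.42 and the grey line stays near 0.

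Of 6 other large subunit genes whose names fall outside the naming pattern, 5 had a named probe set, with a median log2 difference of 0.22. RML2 (uL2), which lies at the peptidyl transferase site, had 2484 and 2253 in the mutant and 2033 and 1813 in the wild type (log2 difference 0.30 ± 0.13 SE). RTC6, homolog of bL36, was at 0.26 ± 0.10 and MNP1, the bL12 protein of the factor-binding stalk, at 0.20 ± 0.090 (SE). These 3 genes were separated upward (60% of the 5, against 14.0% of all tested probe sets). MRX14 (bL34) at 0.22 ± 0.16 and MHR1 (mL67), which also acts in mitochondrial DNA recombination, at 0.036 ± 0.14 overlapped between strains. None of the 5 passed limma's adjusted threshold.

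The small subunit, which decodes the mRNA, had a median of 0.21 (log2 difference) over 32 measured genes. Of these genes, 24 were separated upward (75%, against 14.0% of all tested probe sets) and 0 downward (against 18.0%). The largest values were MAM33 at 0.56 ± 0.16, RSM23 at 0.46 ± 0.13 and MRPS35 at 0.40 ± 0.17 (SE). MAM33 is a matrix protein associated with the ribosome and not one of its core proteins. The 2 subunits thus had close medians, 0.18 for the large and 0.21 for the small, and 0 genes of either passed limma's adjusted threshold. The difference between the subunits was not tested.

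Factors that work with the large subunit are its assembly proteins and the translation factors. Of 11 genes for its assembly and rRNA modification, 2 were separated upward (18.2%, against 14.0% of all tested probe sets) and 1 downward (9.09%, against 18.0%), with a median of 0.023, so these counts were near those of all probe sets. PUS5, a pseudouridine synthase of the large rRNA, was at -0.28 ± 0.19, the helicase gene MRH4 at 0.23 ± 0.20 and AFG3 at 0.20 ± 0.13 (SE). AFG3 and YTA12 encode the m-AAA protease that cuts the MRPL32 precursor, and YTA12 was at -0.0058 ± 0.28. Of 9 translation factor genes, 4 were separated upward (44.4%, against 14.0%) and 0 downward (against 18.0%), with a median of 0.25. The elongation factor genes MEF1 and MEF2 were at 0.42 ± 0.15 and 0.41 ± 0.17, and GUF1 at 0.32 ± 0.27 (SE). None of these genes passed limma's adjusted threshold, where the lowest adjusted p in either list was 0.998.

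At the membrane side of the tunnel exit, 5 genes for insertion of new proteins had a median of 0.14. MBA1, which encodes a membrane receptor for the large subunit, had signals of 3747 and 4111 in the mutant and 2361 and 2860 in the wild type. The strains were well apart, and its log2 difference of 0.59 ± 0.14 (SE, n = 2 arrays each, limma unadjusted p = 0.00840 and adjusted p = 0.936) was larger than that of any large subunit gene. OXA1, the insertase that binds near MRP20, had 1276 and 1053 in the mutant and 1141 and 1096 in the wild type, with overlap (0.051 ± 0.15 SE). COX18 was at 0.26 ± 0.13 and YLH47 at 0.14 ± 0.14 (SE).

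The products of the mitochondrial ribosome join nuclear-encoded partners in the respiratory chain and ATP synthase. A list of 39 nuclear genes for the respiratory chain and ATP synthase was examined, some of which, such as SDH2 and NDE2, do not encode such partners. This list was chosen with earlier results of these data known, so the share of it that separated may depend on that choice. The median log2 difference of the 39 genes was 0.37. Of the 39, 39 were separated upward (100%, against 14.0% of all tested probe sets) and 0 downward (against 18.0%). INH1 at 0.98 ± 0.10, NDE2 at 0.69 ± 0.36 and SDH2 at 0.67 ± 0.10 (SE) had the largest values. NDE2 was dim, at 75.9 and 54.5 in the mutant and 49.8 and 31.8 in the wild type. None of the 39 passed limma's adjusted threshold (lowest adjusted p = 0.270). The lowest value in that list was 0.085, against -0.12 among the 40 large subunit genes. Genes of the mitochondrial genome, including its rRNA, had no named probe set in the annotation used and were not analysed here.

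Among 9 regulators, HAP4, the limiting activator of respiratory genes, was at 0.64 ± 0.18 (SE), with 1696 and 1455 in the mutant and 1140 and 890 in the wild type. PUF3, whose protein binds mRNAs for mitochondrial ribosomal proteins, had 270 and 351 in the mutant and 228 and 327 in the wild type, with overlap (0.17 ± 0.25 SE). SFP1, an activator of cytosolic ribosomal protein genes, was at -0.31 ± 0.14, and HAP5 at -0.22 ± 0.20 (SE), both separated downward. The 9 regulators had a median of -0.025. Of them, 2 were separated upward (22.2%, against 14.0% of all tested probe sets) and 3 downward (33.3%, against 18.0%). None of the 9 passed limma's adjusted threshold (lowest adjusted p = 0.944).

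**Figure D5:**
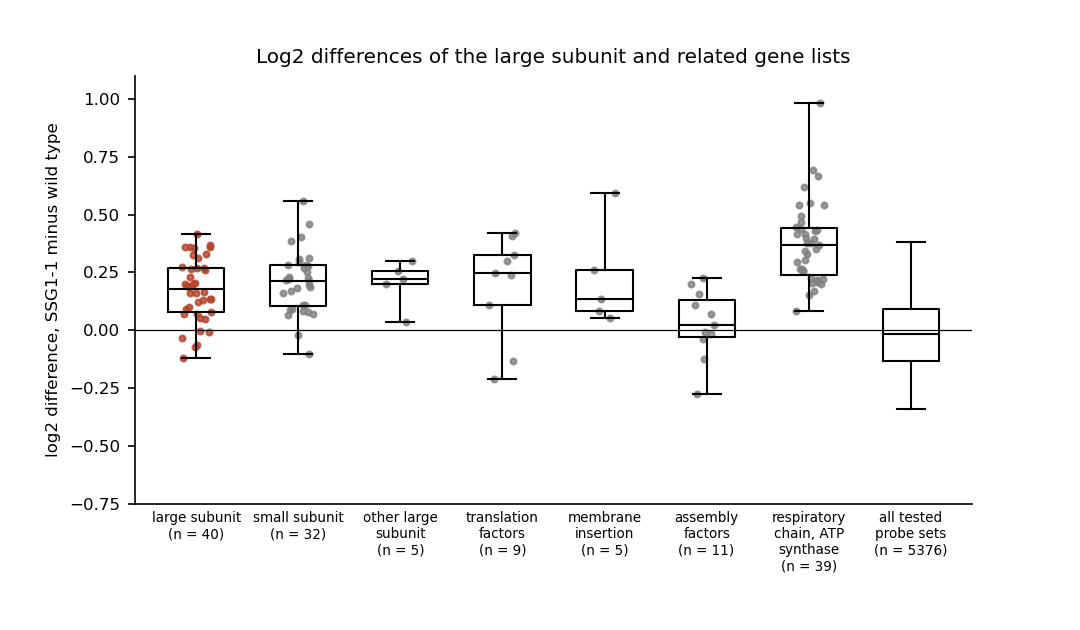
Log2 difference, mutant minus wild type (vertical axis), of the large subunit and 6 related gene lists beside all tested probe sets. Boxes span the quartiles with the median as a line, whiskers span the full range (for all probe sets, the central 90%), and points are single genes. Medians are 0.18 for the large subunit, 0.21 for the small subunit, 0.37 for the respiratory chain and ATP synthase and -0.017 for all tested probe sets.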

How the data were processed

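Total RNA (500 ng, acid-phenol extraction) was labelled with biotin and hybridised to 1-colour Affymetrix arrays, per the labels' protocols. The authors deposited linear signal intensity for each probe set on each array. GCOS is named in the submitters' processing notes, while its background correction and scaling are not given in these sources. A second deposited table, named for MAS5, has detection calls. Its 2 value columns that name a strain equalled array 2 of that strain in all 10928 values, so calls came from 1 array per strain. Its 4 other columns name no sample and were not used. Gene names came from the platform's annotation, with symbols updated through RefSeq's R64 gene table.

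Signals were floored at 0.1, converted to log2 and quantile normalized over all 10928 probe sets. Normalization over the tested probe sets only had been run first, so this pool was chosen after values were seen. Probe sets called present in at least 1 call column were kept. The 2 mutant arrays were compared with the 2 wild-type arrays by limma 3.58.1 in R 4.3.3, using lmFit and trended eBayes, and p-values were adjusted by Benjamini-Hochberg (threshold 0.05). Errors are moderated standard errors. Having 2 arrays per strain limits the precision (median standard error 0.163 over all probe sets and 0.14 over the 40 genes). The fit was also run on simulated data, but the outcome is not given here and is not used as support. For lists, the probe set with the highest mean signal stood for a gene. All 40 members are named, and array values are given for the 6 highest and 6 lowest log2 differences, the stalks, the tunnel and the highest and lowest signals, with a few more added after values were seen. Of other lists, the 3 largest absolute differences and a fixed set of genes are named. The members and lists were chosen with earlier results of these data known. Alternatives were other scalings, filters, variance models and floors, a replicate block and leaving out each array. Coordinates are left out, since no build is named in the files. Plots used matplotlib 3.10.9 under Python 3.11.15.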

Additional observations from a re-analysis of the deposited data

How the results depend on the processing

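No large subunit gene passed limma's adjusted threshold in either direction under the alternatives run, except with the replicate block. The median log2 difference of the 40 genes stayed above 0 under all of them, and above the median of all probe sets by 0.17 to 0.22. Without a detection filter, with a present call required in both call columns and with all probe sets of a gene kept, no count or median of large subunit genes moved by more than the spread between arrays or by over 1.5 times. The same held for quantile normalization over the tested probe sets only, which had been run first, or over all S. cerevisiae probe sets. Both were listed as alternatives after the data were seen, and the median for the large subunit was 0.178 in each. In the deposited values 6 probe sets of all tested were higher at an adjusted p under 0.05, 0 large subunit genes had an unadjusted p under 0.05, 4 were separated upward and 0 downward, and the medians were 0.021 for the large and 0.053 for the small subunit. There 11 genes turned negative. They were MRPL37 (-0.12), MRPL31 (-0.11), MRPL28 (-0.087), MRPL40 (-0.082), IMG2 (-0.074), MRPL9 (-0.072), MRPL24 (-0.072), MRPL19 (-0.043), MRPL16 (-0.036), MRPL44 (-0.034) and MRPL51 (-0.026). This setting by construction keeps the differences in level between arrays, and the median over all probe sets was -0.15 in it. With median centring 4 probe sets of all tested were higher, 3 large subunit genes had an unadjusted p under 0.05 and 1 was separated downward. Without the mean-variance trend, and with a floor of 16, 0 of all probe sets passed.

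Leaving out each array in turn gave 1 to 4 probe sets higher of all tested, 0 to 2 large subunit genes at an unadjusted p under 0.05 (1.6% to 3.07% of all probe sets), 23 to 30 genes separated upward (29% to 31.4% of all) and 2 to 8 downward (32.8% to 39.2% of all), and medians of 0.16 to 0.20 for either subunit. A strain left with 1 array is assumed to vary like the other strain. Signs turned for 6 genes without mutant array 1, 3 without mutant array 2, 2 without wild-type array 1 and 8 without wild-type array 2. These were 12 different genes, whose log2 differences ranged over the 4 fits from -0.11 to 0.088 (IMG1), -0.0061 to 0.17 (IMG2), -0.21 to 0.055 (MRPL17), -0.045 to 0.29 (MRPL19), -0.32 to 0.25 (MRPL20), -0.18 to 0.17 (MRPL22), -0.27 to 0.43 (MRPL24), -0.060 to 0.44 (MRPL25), -0.061 to 0.20 (MRPL28), -0.0047 to 0.11 (MRPL37), -0.18 to 0.31 (MRPL40) and -0.041 to 0.31 (MRPL51). The cause was not tested.

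Same-numbered arrays deviated together (correlation 0.634 over all tested probe sets and 0.73 over the 40 genes), but with 2 pairs and no label explaining the numbers they were not taken as paired. With the number as a replicate block, limma called 427 probe sets higher and 401 lower at an adjusted p under 0.05. Among them were 15 of the 40 large subunit genes higher, against 7.94% of all probe sets called higher, and 0 lower. In the same limma fit 20 of the 40 had an unadjusted p under 0.05 in the higher direction, against 12.3% of all. The 40 genes were called present on the 1 array per strain with usable calls, and whether signal over background limits the dimmer ones was not tested.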
